A study of Mus musculus with 4 samples.

Results

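The transcripts described here are those that GENCODE M21 classes as retained introns and whose gene was expressed at 10 TPM or more in all 4 libraries. TPM corrects read numbers for transcript length and sequencing depth. They were chosen by the gene-level TPM and by the annotated class, and no share of a gene was used to choose them. The rule took 10311 of 21848 annotated retained-intron transcripts, out of 141767 transcripts in all, and they belong to 3857 host genes among 6029 genes that reached the minimum. Protein-coding genes hosted 10245 of them. A host gene had a median of 2 such transcripts, 1342 host genes had 1, and Gas5 had the most, 20. At the edge of the rule, Cd99l2, Uxt and Asns reached 10 TPM exactly in their lowest library, and Ddx46, Apba3 and Ring1 missed it at 9.99, 9.99 and 9.98 TPM.

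The cells were BMDM, macrophages that were differentiated in culture from bone marrow cells of C57BL/6J mice. The sample descriptions give 1 group: 100 ng/mL Lipid A, the TLR4-binding part of lipopolysaccharide, for 12 h, 12 h of washout, and again 100 ng/mL for 60 min. Other fields of the same records disagree: there the agent is lipoprotein A, and no washout is given. RNA selected by polyA was sequenced in 4 libraries labelled as biological replicates, without naming the animals, and untreated cells are not analysed here. Replicates 1 and 2 have 6 read files each and replicates 3 and 4 have 4. Expected counts on genes ran from 23167140 to 41453162 per library, and 378503 to 865605 of them fell on the transcripts described here. All 8 macrophage markers reached 1 TPM in each library (sums of 16692 to 19219 TPM), while the markers of T cells, B cells and erythroid cells summed to at most 0.6 TPM and those of stroma to at most 2.97 TPM. Neutrophil markers summed to 11.5 to 122 TPM, of which S100a8 and S100a9 held nearly all, and Ly6g was at 0 in each library. In a culture measured in bulk, fewer cells of a type and less RNA per cell cannot be told apart.

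An intron is retained when it stays in a polyadenylated RNA from which the spliceosome removes it in other copies. Such an RNA usually carries a stop codon inside the intron, and it may be held in the nucleus until the intron is removed or degraded in the cytoplasm by nonsense-mediated decay (NMD). In macrophages, retention is known as a step that limits the output of some genes of the innate response, among them Irf7. The annotated class is wider than this: it takes any transcript thought to hold intronic sequence beside the coding transcripts of its gene, including short ones that begin or end inside an intron. Of the 10311 transcripts, 3140 (30.5%) held at least 1 whole intron of the gene's protein-coding transcripts, 7101 (68.9%) held only part of one, and 70 held no intronic base by this measure.

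Whole introns are shown first, because they are the part of these RNAs that a spliced message lacks. The following are some of the introns of at most 300 bases that lie between coding segments and that a named transcript held from end to end. They are written 5′ to 3′ on the gene's strand, from the GENCODE M21 transcript sequences on mm10, and capitals mark the first 2 and last 2 bases. The first set holds introns from genes of the innate response, Cd83 (a surface protein of activated antigen-presenting cells), Irf7 (a transcription factor of the interferon response) and Tap2 (which carries peptides to MHC class I), and from Psmb8 (an immunoproteasome subunit).
Cd83-202: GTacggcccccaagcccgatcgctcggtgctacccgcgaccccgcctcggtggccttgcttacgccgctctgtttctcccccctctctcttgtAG
Irf7-210: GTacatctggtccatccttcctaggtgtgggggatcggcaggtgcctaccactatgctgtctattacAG
Tap2-202: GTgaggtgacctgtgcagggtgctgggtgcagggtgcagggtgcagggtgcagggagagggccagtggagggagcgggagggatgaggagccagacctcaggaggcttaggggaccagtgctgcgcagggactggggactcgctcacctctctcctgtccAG
Psmb8-205: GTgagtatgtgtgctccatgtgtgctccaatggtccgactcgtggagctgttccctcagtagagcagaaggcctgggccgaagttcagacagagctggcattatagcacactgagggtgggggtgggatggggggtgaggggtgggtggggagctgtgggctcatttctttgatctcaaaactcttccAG
The second set comes from housekeeping genes: Calr (calreticulin, a chaperone of the endoplasmic reticulum), Prelid1 (a mitochondrial lipid carrier), Sugt1 (an Hsp90 cochaperone), Mrps26 and Rps20 (proteins of the mitochondrial and cytosolic ribosome) and Clk1 (a kinase of splicing factors).
Calr-204: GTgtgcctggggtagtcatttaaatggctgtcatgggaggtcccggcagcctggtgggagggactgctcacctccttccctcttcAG
Prelid1-202: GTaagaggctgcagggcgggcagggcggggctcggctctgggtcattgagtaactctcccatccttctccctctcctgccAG
Sugt1-205: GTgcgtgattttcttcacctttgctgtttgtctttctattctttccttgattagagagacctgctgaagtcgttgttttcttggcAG
Mrps26-201: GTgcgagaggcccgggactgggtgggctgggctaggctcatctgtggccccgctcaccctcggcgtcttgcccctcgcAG
Rps20-201: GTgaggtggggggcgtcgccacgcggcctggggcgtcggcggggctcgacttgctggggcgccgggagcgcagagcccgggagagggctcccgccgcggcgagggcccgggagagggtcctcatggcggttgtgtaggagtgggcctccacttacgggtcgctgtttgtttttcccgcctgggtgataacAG
Clk1-204: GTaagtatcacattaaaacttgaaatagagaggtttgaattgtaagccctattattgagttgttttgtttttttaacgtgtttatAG
These lie at chr13:43785251-43785345 (Cd83, plus strand), chr7:141264656-141264724 (Irf7, minus), chr17:34212068-34212229 (Tap2, plus), chr17:34199381-34199570 (Psmb8, plus), chr8:84844784-84844870 (Calr, minus), chr13:55324445-55324526 (Prelid1, plus), chr14:79587867-79587953 (Sugt1, plus), chr2:130564228-130564307 (Mrps26, plus), chr4:3835292-3835483 (Rps20, minus) and chr1:58417180-58417266 (Clk1, minus). All begin with GT and end with AG. They differed in base composition, from 27.6% G and C in Clk1 and 41.4% in Sugt1 to 71.9% in Rps20 and 72.5% in Mrps26. The share of pyrimidines in the 20 bases before the last 3 was highest in Cd83 (95%), Calr and Prelid1 (both 90%) and lowest in Sugt1 and Rps20 (both 60%).

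For each intron, the TPM of all transcripts that contain it was set against that of transcripts that splice exactly it out. The Cd83 intron, the first of 4, was contained in 64.3%, 69%, 84.2% and 81.4% of that TPM in replicates 1 to 4, a mean of 74.7% ± 9.58 (SD, n = 4). Replicates 3 and 4 were higher than replicates 1 and 2 without overlap. The Irf7 intron, the fifth of 9, was contained in 9.49%, 11.9%, 13.1% and 9.91%, a mean of 11.1% ± 1.70. The libraries stayed within a narrow range, while the transcripts that contained the intron came to 181 TPM because the gene itself was abundant. The Tap2 intron was contained in 75.4% ± 2.68 and the Psmb8 intron in 24.2% ± 1.13, and neither varied much between libraries. The Calr intron was contained in 7.95% of the TPM in replicate 1 and in 19.1%, 33.4% and 29.9% in replicates 2, 3 and 4. The Prelid1, Sugt1, Mrps26 and Rps20 introns were contained in 82.5% ± 1.52, 89% ± 0.697, 92.1% ± 1.6 and 87.1% ± 3.95, so in these genes the annotated spliced form held the smaller part in each library. The Clk1 intron was contained in 13.1% ± 2.53. Other introns that met the description are not printed. Their means were 79.8% (Ncl), 62.7% (Atg4d), 48.5% (Pirb) and 40.9% (Tbc1d17), and 9.16% (Aldoa), 3.99% (Cxcl2) and 3.20% (Smg9). Lower still were Eif4a1 (1.43%), Atf4 (1.03%), Eef1a1 (0.273%) and the introns of Gapdh (at most 0.192%). The printed introns therefore do not show how much such introns were contained in general.

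A second, separate quantification of the same reads gave close values for most of the printed introns. It put the Cd83 intron at 71.8% ± 9.22, Irf7 at 13.1% ± 1.99, Tap2 at 76% ± 3.27, Psmb8 at 26.5% ± 0.946, Sugt1 at 90.8% ± 1.81 and Mrps26 at 92.7% ± 0.624 (SD, n = 4). The Calr intron differed more, at 28.6%, 35%, 37.4% and 35.8% in replicates 1 to 4, so that the low value of replicate 1 was not seen there. These values rest on annotated transcripts, whose other ends and exons also enter the estimate, and not on reads counted at the intron alone. Tap2-202, Psmb8-205 and Prelid1-202 overlap exons of another gene (673, 376 and 102 bases), and ribosomal protein genes have near-identical pseudogene copies, so their values are uncertain.

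Over all introns, those held whole were short. The 3589 introns that any of the transcripts held whole had a median length of 254 bases (quartiles 111 and 659), against 1208 bases (430 and 2785) for 42317 introns of the same genes held whole by none. Under 200 bases were 42.4% of the former and 14.2% of the latter. Which introns are held whole is set by the annotated transcripts and was not measured in these libraries. Within the whole introns the level made little difference to length: 69 introns in transcripts at 10% or more of their gene in each library in both quantifications had a median of 206 bases, and the other 3520 a median of 254.5. GT and AG ended all 69 and 98.8% of the other 3520. The donor began with GTAAG or GTGAG, the letters nearest to the U1 snRNA consensus, in 41 of the 69 (59.4%) and in 1837 of the 3520 (52.2%). The last intron of the gene made up 8 of the 69 (11.6%) and 229 of the 3520 (6.51%), and the first intron 10 (14.5%) and 270 (7.67%). These are descriptions with no test.

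**Figure D1:**
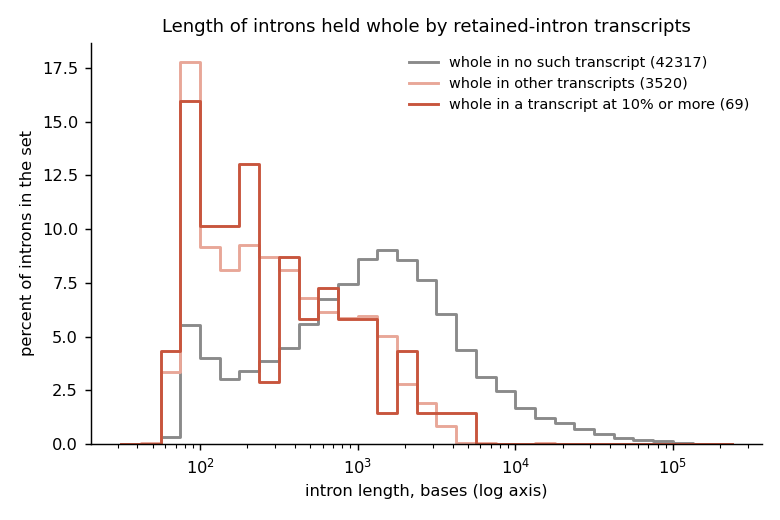
Length in bases (log axis) against the percent of introns in each set. The dark line has 69 introns held whole by a transcript at 10% or more of its gene in every library in both quantifications, the light line the other 3520 introns held whole, and the grey line 42317 introns of the same genes held whole by none. Both sets held whole lie to the left, with medians of 206 and 254.5 bases against 1208.

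How much of the expression of the host genes these transcripts took was described by library. They held 5.01%, 5.82%, 6.67% and 5.93% of host gene TPM in replicates 1 to 4, a mean of 5.86% ± 0.681 (SD, n = 4). Protein-coding transcripts held 88.8% ± 1.46, NMD transcripts 2.52% ± 0.346 and processed transcripts, which have no coding frame, 2.61% ± 0.543. Transcripts with a whole intron took 1.19% ± 0.189 of host TPM and those with part of one took 4.64% ± 0.549. So 79.1% ± 2.07 of the TPM of the class lay in transcripts that hold only part of an intron. These shares are sums of TPM, so abundant transcripts weigh most in them. The most abundant, Ctsb-202, H2-K1-215 and Itm2b-202, had means of 3784, 3690 and 1789 TPM and each hold part of an intron. As a share of expected counts, which are not scaled for length, the class held 3.19% ± 0.451.

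In the second quantification the class held 6.87%, 8.15%, 7.03% and 5.93%, a mean of 6.99% ± 0.909 (SD, n = 4). The difference, second minus first, was 1.86, 2.32, 0.36 and 0.0047 percentage points in replicates 1 to 4. It was above 0 in 4 of 4 libraries with an exact two-sided sign-flip p of 0.13, the smallest that 4 libraries allow. The gap was wide in both libraries with 6 read files and narrow in both with 4. On the mean of each pair the order turned: in the first quantification replicates 1 and 2 had 5.42% and replicates 3 and 4 had 6.30%, and in the second 7.51% and 6.48%. The second quantification also assigned more counts to transcripts than the first, 1.32 and 1.31 times in replicates 1 and 2 and 1.09 times in replicates 3 and 4. The part of the read files in this was not tested.

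**Figure D2:**
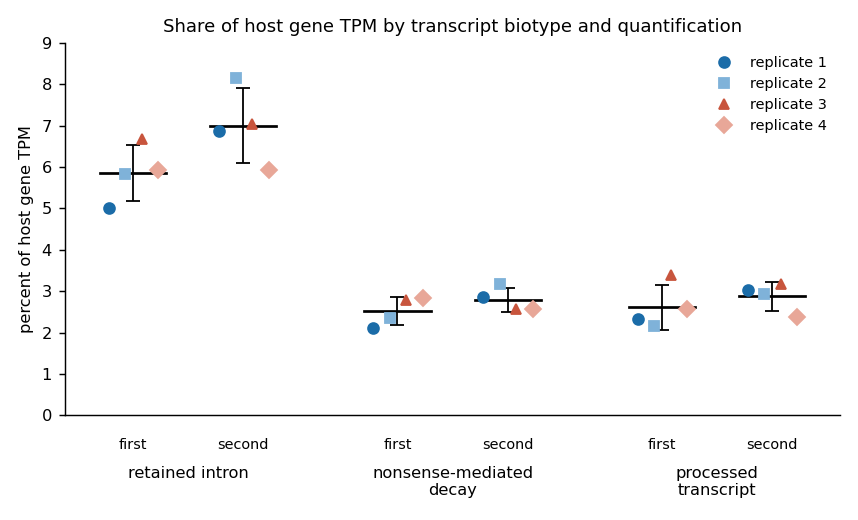
Percent of host gene TPM in each library for 3 transcript classes, in the first and second quantification; points are libraries, horizontal lines the mean and whiskers the SD (n = 4). Retained-intron transcripts lie at 5.01% to 6.67% in the first and 5.93% to 8.15% in the second, above both other classes in every library. The rule gives all 3857 host genes a retained-intron transcript, while 1534 have an NMD transcript. The order of these classes is thus partly set by the choice of genes.

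In the 1534 host genes that also have an annotated NMD transcript, the order of the classes was the other way. By the rule every host gene has a retained-intron transcript, while the remaining host genes have no NMD transcript. The order over all host genes was therefore partly set by how they were chosen. There retained-intron transcripts held 5.06%, 6.46%, 6.52% and 5.37% of TPM in replicates 1 to 4 and NMD transcripts 7.82%, 8.50%, 9.73% and 9.82%, and the ranges do not overlap. The difference was -3.11 ± 1.01 percentage points (SD, n = 4), negative in 4 of 4 libraries, with an exact two-sided sign-flip p of 0.13. In the second quantification it was -1.99 ± 1.13, again negative in 4 of 4 libraries. There the ranges overlap, from 5.76% to 10.1% for retained-intron and from 8.82% to 11.0% for NMD transcripts. The test cannot reach 0.05 with 4 libraries.

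For the typical host gene the class was a minor part. The median host gene gave 1.24%, 1.83%, 1.92% and 1.16% of its TPM to retained-intron transcripts in replicates 1 to 4 (mean 1.54% ± 0.392, SD, n = 4), and 2.43% ± 0.666 in the second quantification. Replicates 2 and 3 were the higher pair in both. They were also the higher pair for Neat1, a long RNA kept in the nucleus, at 68.4, 164, 232 and 85.5 TPM in replicates 1 to 4; Malat1, another nuclear RNA, had 305, 426, 926 and 551 TPM. The share of TPM on mitochondrial genes was 1.94%, 2.80%, 4.78% and 4.00%. On ribosomal RNA genes it was 7.14%, 2.73%, 1.29% and 2.69%. The part of nuclear RNA or RNA composition in the shares was not tested.

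Most of the transcripts were present at little or nothing. Of the 10311, 1239 were at 0 TPM in every library and 1287 (12.5%) at 1 TPM or more in every library, 237 at 10 TPM or more and 21 at 100 TPM or more. The second quantification had 1369 at 1 TPM or more, and 1031 reached that level in both, which is 80.1% of the first list and 75.3% of the second. The interval that the first tables give for each TPM had its lower bound at 1 TPM or more in all 4 libraries for 789. At least 10% of the gene in every library was held by 383 transcripts in the first quantification, 381 in the second and 277 in both (72.3% and 72.7% of each list). Of those 277, 58 held a whole intron and 112 (40.4%) had fewer than 100 intronic bases, against 1522 (14.8%) of all 10311.

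The 3 most abundant transcripts of the class each held fewer than 100 intronic bases. Ctsb-202, from the lysosomal protease cathepsin B, has 91 intronic bases in 801 and had 3487, 3607, 3994 and 4049 TPM in replicates 1 to 4, or 44% ± 0.774 of the gene (SD, n = 4). Its share was alike in the 4 libraries, and 54.4% ± 5.43 in the second quantification. H2-K1-215, from a heavy chain of MHC class I, has 20 intronic bases in 457, none of its bases is absent from the gene's other transcripts, and it had 2735, 2734, 4527 and 4766 TPM. It held 33.7%, 34.9%, 53.2% and 51.3% of the gene, higher in replicates 3 and 4 without overlap. The second quantification gave 1204, 1328, 2198 and 1824 TPM and 30.3% ± 5.36 of the gene; class I genes are near-identical in sequence, so the value is uncertain. Itm2b-202, from an integral membrane protein, had 1789 ± 263 TPM and 47.3% ± 5.83 of its gene.

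Next came transcripts of regulators and of stress and structural genes. Rgs1-203, from a regulator of G protein signalling, had 460, 686, 397 and 780 TPM and held 36.9% to 40.3% of the gene in each library; the second quantification gave 366 ± 98.7 TPM and 36.1% ± 2.47. Sod2-204, from the mitochondrial superoxide dismutase, had 350 ± 75.1 TPM and 42.1% ± 1.75 of its gene (SD, n = 4). Ms4a6c-202 (25.7% ± 5.80 of its gene), Vim-203 of the filament protein vimentin (26.3% ± 4.14) and Samhd1-210 of a nucleotide hydrolase that restricts viruses (26.6% ± 2.94) held smaller parts. Cox6b1-202, of a subunit of respiratory complex IV, had 184, 197, 520 and 385 TPM and 47.6% ± 7.53 of its gene, and 164 ± 70.2 TPM and 38.7% ± 4.02 in the second quantification. Fth1-207 had 209 ± 12.5 TPM but only 0.368% ± 0.0755 of ferritin heavy chain, whose gene stood at 58147 TPM. In the second quantification it had 52.6 ± 15.4 TPM and 0.123% ± 0.0359 of the gene. High TPM therefore did not mean a high share of the gene.

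Among the 15 most abundant were 3 with a whole intron: Rps20-201 (223, 296, 281 and 288 TPM, and 175 ± 30.3 in the second quantification), Cd83-202 (93.7, 158, 212 and 452 TPM) and Pirb-202, from an inhibitory receptor of myeloid cells (126, 240, 226 and 221 TPM). Cd83-202 was lowest in replicate 1 and highest in replicate 4, and its share of the gene moved less, from 64.3% to 84.2%. Pirb-202 held 42.2% ± 6.23 of its gene in the first quantification and 61.5% ± 1.38 in the second (SD, n = 4), and Pirb belongs to a family of near-identical receptors. Myl12b-202, of a myosin light chain, and Ghitm-203, of a mitochondrial membrane protein, completed the 15, with 231 ± 37.9 and 201 ± 31.9 TPM.

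**Figure D3:**
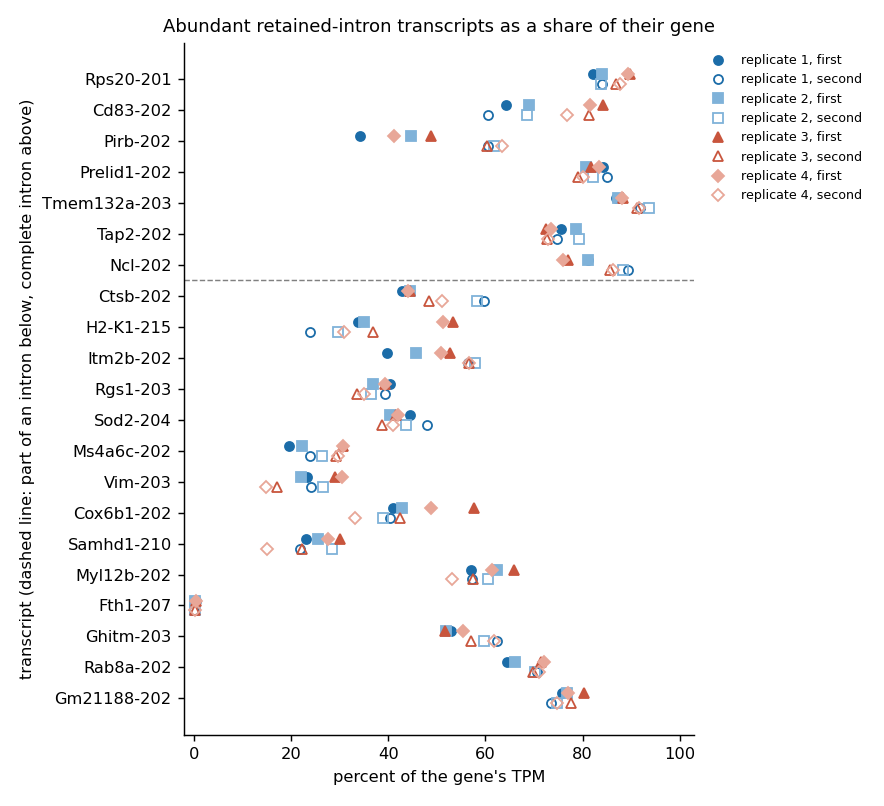
Share of the gene's TPM (horizontal axis, percent) for the 15 most abundant transcripts of the class and the 10 most abundant that held 50% or more of their gene in both quantifications. Filled points are the first quantification and open points the second, one per library, and transcripts above the dashed line hold a whole intron. Ncl-202, Tap2-202, Tmem132a-203, Prelid1-202 and Rps20-201 lie above 70% in both, and Fth1-207 near 0.

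A retained-intron transcript led its gene, as the most abundant transcript in every library, in 68 host genes in the first quantification, 63 in the second and 51 (1.32% of 3857) in both. NMD transcripts led 48 host genes in both and protein-coding transcripts 3377. At least 50% of the gene in every library and in both quantifications was held by 30 transcripts, of which 10 held a whole intron and 11 overlap exons of another gene. Beside Rps20-201, Cd83-202, Myl12b-202 and Ghitm-203, the most abundant were Prelid1-202 (120 ± 14.2 TPM, 82.5% ± 1.52 of the gene), Rab8a-202 of a GTPase of vesicle transport (101 ± 26.8 TPM, 68.5% ± 3.85) and Gm21188-202 (92.4 ± 15.4 TPM, 77.5% ± 1.91). Tmem132a-203 held 87.7% ± 0.693 of its gene with 479 intronic bases, Tap2-202 held 75% ± 2.75, and Ncl-202 of nucleolin, a protein of ribosome assembly, held 78.8% ± 2.74 with 2 whole introns that sum to 682 bases (SD, n = 4). Myl12b-202, Prelid1-202, Gm21188-202, Tmem132a-203 and Tap2-202 overlap exons of another gene, so reads of either gene could enter their values.

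The 30 also held transcripts with very few intronic bases. Timm17a-204 has 4 intronic bases and 69% ± 3.66 of its gene (SD, n = 4), Sri-201 of the calcium-binding sorcin 11 bases and 61.6% ± 4.48, and Ufm1-204 of a ubiquitin-like modifier 19 bases and 68.3% ± 3.86. At the other end, with both overlapping exons of another gene (1088 and 111 bases), were BE692007-202 and Olfr56-205. BE692007-202 is intronic in 4051 of its 4331 bases and held 98.1% ± 1.07 of its gene in the first quantification and 82.2% ± 4.41 in the second. Olfr56-205, with 1906 intronic bases of 2767, held 99.3% ± 0.419 and 90.5% ± 2.69. Mrps26-201, Mrpl57-202 and Chic2-202 held 92.1% ± 1.6, 89.7% ± 2.48 and 86.4% ± 2.04 of genes at 12.6, 34.9 and 22.2 TPM.

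Lists of genes chosen for their functions, with earlier results of these data known, were described by the share of each host gene that went to the class. Over all 3857 host genes the median of this mean share was 1.68% in the first quantification and 2.64% in the second, and 347 genes (9%) gave 10% or more in every library in both. The genes of a list counted below at 10% or more are those that met this rule. Of the lists of splicing genes, the kinases, the SR proteins and the spliceosome had medians above these values, and the hnRNP proteins had a median below in the first quantification; no list was tested. For 6 kinases of splicing factors the medians were 22.6% and 25.5%, and Clk1, Clk3 and Clk4 gave 10% or more. Clk4 gave 34.2%, 32.9%, 26.7% and 32.4% in replicates 1 to 4 and Clk1 17.4%, 31.2%, 25.7% and 20%, each spread over 7 transcripts. No member of this list reached 10% on its own in every library in both quantifications. Clk3-202 had mean shares of 15.6% and 17.3%, but 8.94% in replicate 4 of the second quantification. Clk1-204 had 3.67, 7.24, 6.68 and 3.30 TPM and Clk4-207 1.73, 1.98, 2.08 and 1.34 TPM.

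The 10 SR protein genes with such transcripts, which mark exons for the spliceosome, had medians of 9.05% and 10.8%, and Srsf11 and Srsf6 gave 10% or more. Srsf11 gave 40.4% ± 9.16 (SD, n = 4) over 11 transcripts. Srsf5 gave 10.2%, 13.4%, 13.6% and 5.68%, highest in replicates 2 and 3, and Srsf1 19.1% ± 7.76, of which Srsf1-203 holds no intronic base. Srsf7 gave 3.54%, 7.05%, 10.8% and 7.37%. The 16 hnRNP genes, whose proteins often oppose SR proteins, had lower medians, 0.97% and 2.9%. None was at 10% in every library in both quantifications, though Hnrnpa2b1 had mean shares of 10.7% and 11.3%. Hnrnpa2b1-208, Hnrnpk-204 and Hnrnpl-205 had 23.1 ± 11.5, 4.87 ± 2.19 and 2.99 ± 1.87 TPM. Of 32 spliceosome genes, 7 gave 10% or more (Ddx39b, Luc7l2, Prpf31, Prpf38b, Rbm25, Rbm39 and Sf3b1), with medians of 3.99% and 6.68%. Rbm39 gave 19.5% ± 1.69 (SD, n = 4). Ddx39b gave 12.6%, 19.2%, 19.6% and 13.2% in replicates 1 to 4, highest in replicates 2 and 3. The 8 genes of nonsense-mediated decay and the exon junction had medians of 4.31% and 7.76%. None was at 10% in every library in both quantifications, though Smg5 had mean shares of 12% and 15.7%. Smg9-204 and Smg5-203 had 0.843 and 0.738 TPM (0.404 and 0.639 in the second quantification).

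Among genes known for detained or regulated introns, 9 had such transcripts, with medians of 10.7% and 15%, and Clk1, Clk4 and Ogt gave 10% or more. Ogt, which adds a sugar to nuclear proteins, gave 28.7%, 24.7%, 19.4% and 25.1%, and Ogt-204 alone 19.9% ± 4.00 (SD, n = 4). Irf7 gave 8.1%, 10.3%, 11.4% and 8.23% in the first quantification and 14.7%, 18.2%, 15.7% and 11.4% in the second, with Irf7-210 at 176, 192, 167 and 145 TPM. The 4 hosts of small nucleolar RNAs, which lie inside introns, had medians of 9.17% and 10.4%; Snhg1 gave 15.9% ± 5.93 over 14 transcripts, Gas5 9.69% ± 3.68 over 20 and Zfas1 8.64% ± 4.67 over 4.

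Genes of translation and metabolism lay at or below the median of all hosts, with exceptions. The 61 cytosolic ribosomal protein genes had medians of 0.37% and 0.56%, but Rps20, Rps16 and Rpl5 gave 87.2% ± 3.93, 79% ± 8.92 and 62.7% ± 5.18 (SD, n = 4). These 3 genes stood at 314, 269 and 57.2 TPM in the first quantification. Rps16-203 held 40.1%, 36.5%, 74.6% and 66.6% of its gene, higher in replicates 3 and 4 without overlap, and 45.4% ± 18.5 in the second quantification. Rpl5-202 had 31.5 ± 11.4 TPM and 54.3% ± 8.40 of its gene in the first quantification. In the second it had 1.14 ± 0.422 TPM and 16.7% ± 2.46 of its gene, so the whole Rpl5 gene was also far lower there. The share of Rpl5 is therefore uncertain. The 38 translation factors and tRNA synthetases (1.07% and 1.36%), 37 respiratory chain subunits (0.82% and 1.11%) and 12 glycolytic genes (0.46% and 0.45%) had low medians. Eif4g1, a scaffold of translation initiation, stood apart with 15.7%, 16.2%, 30.5% and 36.8%, but 6.31%, 2.79%, 19.6% and 21.4% in the second quantification. Eef1a1-206, Eif4g1-210 and Eif4a1-204 had 7.66, 19.5 and 7.23 TPM (2.28, 6.52 and 6.51 in the second quantification), Ndufa7-204 and Atp5b-205 had 7.47 and 3.21, and Pkm-205, Aldoa-206 and Gapdh-213 had 2.63, 1.83 and 1.30 TPM (1.86, 1.37 and 0.845 in the second).

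Genes of the innate response varied. The 24 interferon-stimulated genes had medians of 3.88% and 4.62% and only Stat2, a factor of interferon signalling, gave 10% or more, at 29%, 23.1%, 28.9% and 30.2%; Oasl2-204, of an antiviral gene, had 19.3 ± 9.84 TPM. The 10 cytokine and chemokine genes had medians of 1.82% and 1.81% and none at 10%. Ccl5-202 had 101, 188, 109 and 115 TPM with 428 intronic bases of 668, but 0.637% ± 0.121 of Ccl5 (SD, n = 4), and Cxcl10-203 and Cxcl2-204 had 47.4 ± 27.7 and 20 ± 14.2 TPM (24.9 ± 23.8 and 9.43 ± 9.67 in the second quantification). The 16 genes of NF-kB feedback had 3.3% and 5.55%, with Rela and Tnip3 at 10% or more. Tnip3, an inhibitor of NF-kB signalling, gave 43.4%, 43.8%, 46.8% and 46.7%, while Nfkbia-202 and Tnfaip3-205 held 1.29% ± 0.341 and 1.35% ± 0.396 of their genes (3.23% ± 2.15 and 1.71% ± 0.468 in the second quantification). The 17 genes of the TLR4 pathway had 4.99% and 7.37%, with Cd14, Irak2 and Irf3 at 10% or more. Cd14, the coreceptor that hands lipopolysaccharide to TLR4, gave 10.2%, 12.3%, 15.2% and 14.6%, through 1 transcript with a whole intron of 91 bases. Irak2, a kinase of that pathway, gave 23.3% ± 3.51, and Ikbke-203, of a kinase that activates interferon genes, held 5.75% ± 3.32 of its gene. Of 16 expressed immediate-early genes, 2 hosted such a transcript, Klf6 and Atf4, against 3857 of all 6029 genes at the minimum. Which genes host one is set by the annotation and was not measured in these libraries. Klf6-202 was at 9.16 ± 4.22 and Atf4-203 at 2.50 ± 0.298 TPM. In the second quantification Klf6-202 had 24.7 ± 17.3 TPM, and its share of the gene was 5.83% ± 3.90 against 1.75% ± 0.70 in the first.

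In antigen presentation, the 17 genes of MHC class I had medians of 5.56% and 5.48%, and H2-K1, H2-Q7, Psmb8 and Tap2 gave 10% or more. Psmb8-205 had 183, 193, 152 and 183 TPM, or 24.2% ± 1.13 of its gene (SD, n = 4). Of 18 lysosomal and macrophage identity genes (1.12% and 2%) Ctsb gave 10% or more; Grn-206, of progranulin, had 50.9 ± 10.3 TPM. The counts of genes per list are small.

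Which transcripts varied between libraries beyond what their abundance gives was tested with edgeR over all transcripts. Of 22514 transcripts tested, 373 (1.66%) were called at an adjusted p of 0.05, and of the 1959 retained-intron transcripts that passed the filter on low counts, 20 (1.02%), while 8352 were not tested. The share is close to the background and below it, so it shows nothing particular to the class. Without replicate 3, 11 of 1888 were called, against 240 of 22514 transcripts in all. With counts of the second quantification 34 of 2564 were called, against 459 of 25789. Of the 20, 15 were tested there and 6 were called. Only 2 of the 20, Cd83-202 and Slc7a8-202, have a host gene that varied at gene level, where 305 of 11679 genes (2.61%) were called.

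The 10 with the lowest adjusted p are described by library. Pim1-204, of a kinase induced by cytokines, had 20.1, 30.2, 140 and 263 TPM in replicates 1 to 4 and 5.41%, 7.15%, 47.1% and 45.4% of its gene (edgeR adjusted p = 8.07e-13). Replicates 3 and 4 were higher without overlap, and the second quantification gave 29.7, 30.4, 137 and 245 TPM; it holds 20 intronic bases and overlaps another gene by 439 bases. Calr-204 had 37.8, 148, 245 and 255 TPM (edgeR adjusted p = 0.000271), lowest in replicate 1, but 114, 193, 272 and 286 in the second quantification, where it was not called (adjusted p = 1.00). Slc7a8-202, of an amino acid transporter, had 10.4, 4.27, 1.14 and 1.20 TPM (edgeR adjusted p = 0.000595), lower in replicates 3 and 4, as was its gene. Zbtb21-204 had 6.93, 6.81, 3.90 and 0.4 TPM, lowest in replicate 4 (edgeR adjusted p = 0.000385), and 1.19, 2.91, 2.02 and 0.461 in the second quantification, where it was not called (edgeR adjusted p = 0.281).

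The other transcripts among the 10 with the lowest adjusted p were also not called, or not tested, in the second quantification. Asah1-203, of acid ceramidase, had 0.66, 2.66, 16 and 0.72 TPM, high in replicate 3 (edgeR adjusted p = 8.80e-09), and 41.2, 43.2, 111 and 36.1 in the second, where replicate 3 was also highest. Tmem59-205 had 32, 11.1, 1.37 and 25 TPM and Psmb10-205, of an immunoproteasome subunit, 49.3, 34.6, 1.74 and 17, both lowest in replicate 3 (edgeR adjusted p = 3.91e-05 and 7.05e-05). In the second quantification both were lowest in replicate 4. Tmem59-205 had 4.38, 1.75e-07, 1.53 and 0 TPM there and Psmb10-205 13.1, 5.91, 2.32 and 0. Hsp90aa1-205, of the heat shock protein Hsp90, had 33.6, 7.55, 2.29 and 4.45 TPM, high in replicate 1 (edgeR adjusted p = 0.00107). In the second quantification it had 58.4, 39, 9.13 and 5.13e-09 TPM, high in replicates 1 and 2. Tfrc-204, of the transferrin receptor, was highest in replicate 3 at 44.6 TPM, and in the second quantification it was near 0 in the 3 other libraries and 24.3 TPM there. Wdfy3-204 had 8.76 and 7.65 TPM in replicates 1 and 2 and 1.08 and 1.92 in replicates 3 and 4.

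**Figure D4:**
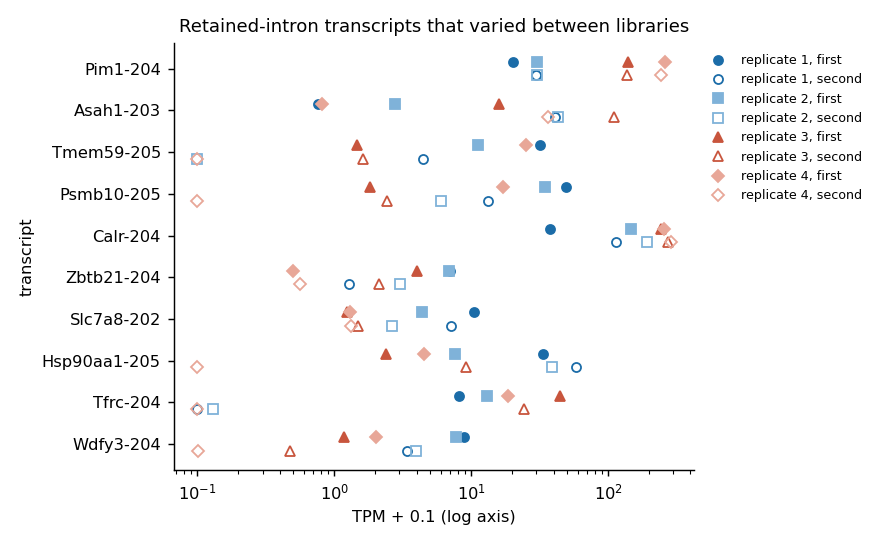
TPM + 0.1 (log axis) of the 10 retained-intron transcripts with the lowest adjusted p for variation between libraries; filled points are the first quantification, open points the second, one per library. Pim1-204 runs from 20.1 to 263 TPM with replicates 3 and 4 on the right in both quantifications, while Tmem59-205, Psmb10-205, Hsp90aa1-205, Tfrc-204 and Wdfy3-204 lie at or near 0 TPM in at least 1 library in the second quantification alone.

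The replicates with 6 and with 4 read files were also compared by the share of the gene, as that is the 1 technical split the records give. Of 1287 retained-intron transcripts at 1 TPM or more, 280 (21.8%) were higher in both of replicates 3 and 4 than in both of replicates 1 and 2, against 22.3% of all transcripts of the host genes at that level, and 217 (16.9%) were lower, against 24%. In the second quantification 211 of 1369 (15.4%) were higher, against 28.9%, and 374 (27.3%) were lower, against 22.9%. The direction of the class thus depended on the quantification, and Cd83-202, H2-K1-215, Rps16-203 and Pim1-204 were higher in replicates 3 and 4 in both. With 1 group the read files and the cultures cannot be told apart.

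How far the 2 quantifications agree was tested for each transcript with limma on the per-library difference of log2(TPM + 0.1), second minus first, and a call needed an adjusted p of 0.05 and a 2-fold difference. Of 2308 retained-intron transcripts tested, 209 (9.06%) were higher in the second, against 6.64% of all 24251, and 189 (8.19%) were lower, against 6.24%. Without replicate 2 the calls in both directions fell from 398 to 249 of 2245 tested, and over all transcripts from 3123 to 2167 of 24153. The median difference was -0.02 for these transcripts and -0.32 for all, on the log2 scale. With the share of the gene in place of TPM 258 of 2308 were called, against 1608 of 23503 in all. Whole-intron transcripts were called in 32 of 683 as higher and 60 as lower, and those with part of an intron in 177 of 1610 as higher and 124 as lower. The mean shares in the 2 quantifications had a Pearson's r of 0.873 across 2642 transcripts, which are not independent replicates and share their reads.

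**Figure D5:**
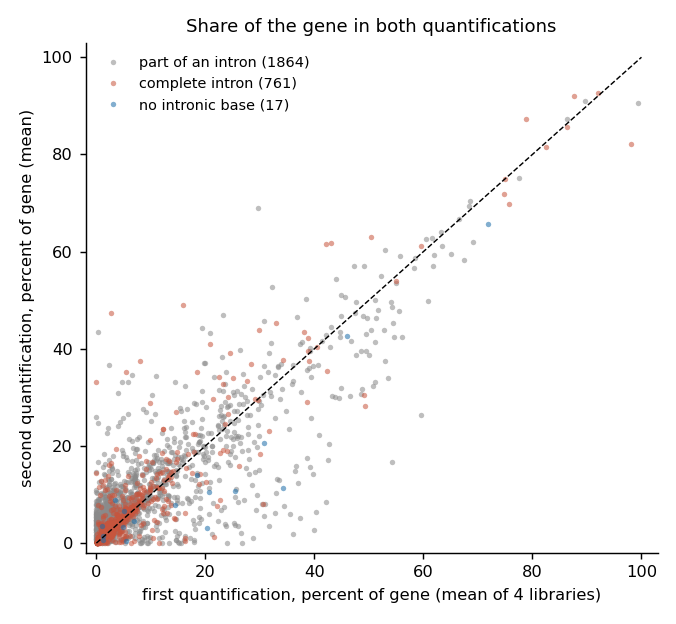
Mean share of the gene over 4 libraries in the first (horizontal) and second (vertical) quantification for 2642 transcripts at a mean of 1 TPM or more in either, coloured by whether they hold a whole intron (761), part of one (1864) or none (17); the dashed line marks equal shares. Pearson's r over the points is 0.873.

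The transcripts that differed most were present in one quantification and near 0 in the other. Lars2-205, of the mitochondrial leucyl-tRNA synthetase, holds a whole intron of 80 bases, was at 0 in the first in each library and had 495, 1123, 324 and 426 TPM in the second (difference 12.36 ± 0.30, SE, limma adjusted p = 2.94e-05). Esyt1-202, Hnrnpll-206 and Rheb-202 were also higher in the second, by 6.18 ± 0.35, 5.77 ± 0.77 and 5.71 ± 1.12 on the log2 scale (SE). Hnrnpll-206, of a splicing regulator of lymphocytes, had 22.4, 24.4, 3.77 and 2.17 TPM there, far higher in replicates 1 and 2. Anpep-206, of the aminopeptidase CD13, had 38.5, 106, 57.6 and 132 TPM in the first and at most 0.658 in the second, a difference of -7.89 ± 0.36. Igf2bp2-207, Ppp1r21-202 and Nfu1-207 were lower in the second by the same test, with differences of -7.08 ± 0.26, -6.58 ± 0.14 and -5.92 ± 0.53, and hold 8, 52 and 10 intronic bases. Ppp1r21-202 and Nfu1-207 were at 0 in the second in each library, as Lars2-205 was in the first. For these transcripts the size of the difference depends on the 0.1 TPM added before the log. Their SE measures the spread of 1 quantification only. None of these 8 reached 10% of its gene in all 4 libraries in both quantifications.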

How the data were processed

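PolyA RNA-seq of 4 BMDM libraries was used. The deposited tables hold, per the file headers, an expected count and TPM for each gene and transcript, the share of a transcript in its gene in percent, and, in a second transcript table, an estimated count and TPM. Per the deposited records, reads were assigned to GENCODE M21 transcripts on mm10. The programs are not given in the sources used here, and neither is the strand of counting. Members and gene lists were chosen with earlier results of these data known. Groups came from the labels; there is 1, so p-values measure the spread between these 4 libraries only.

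Shares were recomputed from TPM and differed from the deposited percent by at most 0.07 points among members at 1 TPM. Intron structure was read against the protein-coding transcripts of each gene in the annotation, and introns under 30 bases were left out. Expected counts were rounded; variation between libraries was tested by the deviance (3 degrees of freedom) of an intercept fit with trended dispersion, TMM factors and the filterByExpr filter in edgeR 4.0.16 (R 4.3.3), with DESeq2 1.42.0 as an alternative, and the quantifications with limma 3.58.1 at a mean of at least 1 TPM; p-values were adjusted by Benjamini-Hochberg over all transcripts. The scripts were tested on simulated data. The biological coefficient of variation, taken as the square root of the mean trended dispersion, was 32.5%. Of the 6029 genes, 3 have no transcript in the second tables.

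Named are the 15 members with the highest TPM, 10 of those at 50% or more of their gene in both quantifications, the 10 variable members with the lowest adjusted p, the 4 highest and 4 lowest between quantifications, up to 3 hosts per list, Clk1, Clk4, Srsf7, Ogt and Irf7 as known for retention (Lmnb1, also in that rule, hosts no member), and genes at the edge of the 10 TPM minimum. Some genes under this rule are not reported here. Others were chosen after their values were seen. Alternatives were the second quantification, other minima, shares of counts, and leaving out each library; restricting to whole introns, or leaving out members that overlap another gene, was chosen after seeing the data.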

Additional observations from a re-analysis of the deposited data

Results flagged for a closer look

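In 126 sets of 4 libraries, 2 had a library far from the others, where chance flags about 1 in 20. Both are transcripts at 0 in all but the flagged library in the first quantification. Rheb-202, from a GTPase that activates mTORC1, held 8.09% of its gene in replicate 4 and 0 in the other libraries, and Esyt1-202 held 0.198% of its gene in replicate 3 and 0 in the others.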

How the results depend on the processing

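No paired analysis was possible because the study has 1 group. Moved values were as follows. The share of host TPM was 6.99% in the second quantification, 3.19% on expected counts, 1.19% for members with a whole intron and 5.12% without members that overlap another gene. The median share per host gene was 2.43% in the second quantification, 0.716% on expected counts, 0.878% at a gene minimum of 100 TPM and 6.14% among hosts with at least 1 TPM of the class. Members at 10% of their gene numbered 592 and 64 at gene minima of 1 and 100 TPM, 619 and 152 at 5% and 25% of the gene, and 70 with a whole intron. Host genes led by the class numbered 105 and 14 at those minima and 12 with a whole intron. Members at 1 TPM numbered 531 at a gene minimum of 100 TPM and 431 at 5 TPM. Variable members numbered 36 of 1959 with DESeq2's dispersion trend, against 535 of 22514 transcripts in all. They numbered 70 of 9050 with no filter (1307 of 65554 in all) and 34 of 2564 in the second quantification (459 of 25789). Without replicate 3 they numbered 11 of 1888 (240 of 22514). The highest counts with 1 library left out were 16 of 2192 without replicate 2 (267 of 23934) and 16 of 2074 without replicate 4 (252 of 22874). Members that differ between quantifications numbered 254 of 2308 with a pseudocount of 0.01, against 2329 of 24251 transcripts in all. At a mean of 5 TPM they numbered 153 of 688 (1220 of 11858 in all), and by share of the gene 258 of 2308 (1608 of 23503). With 1 library left out they numbered from 249 of 2245 (2167 of 24153) to 427 of 2418 (3194 of 24443). With no filter, which did not move the count, 333 of 9778 were called, against 3961 of 85019. Of the named transcripts' shares of their gene, 52 moved by more than 1 SD in the second quantification and 62 did not. Leaving out 1 library cannot move a mean over the libraries by 1 SD, so that setting decides nothing for these shares. For the values over all members, the other planned settings stayed within 1 SD or 1.5 times, and the difference from NMD transcripts was negative in each. For the mean shares over all members too, leaving out 1 library had little room to pass 1 SD. Of the 10 named variable members all 10 were called with DESeq2 size factors, 7 with no filter and 5 without replicate 3; by construction fewer libraries give less power, and the cause of the other moves was not tested. Low depth limits shares in members under 1 TPM.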
